A study of Mus musculus with 8 samples.

Results

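This section describes 8 transcription factor genes of nephron identity, injury and repair in the mouse kidney: Hnf4a, Lhx1, Pax2, Pax8, Sox9, Sox4, Klf6 and Myc. They were chosen by name, as the probes on the array whose transcript identifier belongs to one of these genes, and all 8 were among the 20580 genes that could be tested. They were represented by 15 of the 41174 probes on the array. Messenger RNA was measured with 1 dye on 8 arrays, 2 per group and 4 groups, from whole kidneys of male mice aged 16 weeks. Kidneys of wild-type (WT) mice and of mice with Keap1 knockdown (KD) were taken without surgery (normal) or 1 day after the vessels were clamped and released, an ischemia-reperfusion injury (IRI). For the injury, the artery and vein of the left kidney were closed for 45 min and then opened, while the right kidney kept its blood flow. Normal kidneys were left kidneys of mice that had no such operation. Keap1 encodes the adaptor that marks the transcription factor NRF2 for degradation. The labels name the knockdown but not the allele, the cells it affects or the animal behind each array, so p-values here reflect only how far these samples spread, which may be technical.

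The nephron is built and kept by a small set of transcription factors. PAX2 and PAX8 are paired-box proteins that, together with the LIM homeodomain protein LHX1, direct the formation of the nephric duct and early nephron. HNF4A is a nuclear receptor that maintains the transporters and metabolic enzymes of the proximal tubule, the segment most exposed to ischemia. SOX9 and SOX4 are HMG-box proteins of the developing nephron, and SOX9 returns in tubule cells that survive injury and regenerate. KLF6 is a zinc-finger protein induced early after tubule injury, and MYC is a basic helix-loop-helix protein that pairs with MAX and drives ribosome production and growth.

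The stretch of DNA just before the transcription start is shown for the members that rose or fell with injury and had an entry in RefSeq's table for GRCm38.p6, so that the sequences upstream of the rising and the falling genes can be set side by side. Of the 8 members 6 had an entry, and Sox9 and Myc had none in this table. The windows are the 250 bases before the annotated start, read 5′ to 3′ along the gene. They lie at chr2:163506607-163506856 and chr2:163546905-163547154 (plus strand) for the upstream and downstream starts of Hnf4a, chr11:84525535-84525784 (minus strand) for Lhx1, chr13:28953700-28953949 (minus strand) for Sox4 and chr13:5861239-5861488 (plus strand) for Klf6. Capitals mark matches, on either strand, to the core of the NRF2 element (TGACNNNGC), the AP-1 site (TGANTCA), the E-box bound by MYC and MAX (CACGTG), the GC box bound by SP and KLF proteins (GGGCGG) or the TATA box (TATAAA).
Hnf4a, upstream start: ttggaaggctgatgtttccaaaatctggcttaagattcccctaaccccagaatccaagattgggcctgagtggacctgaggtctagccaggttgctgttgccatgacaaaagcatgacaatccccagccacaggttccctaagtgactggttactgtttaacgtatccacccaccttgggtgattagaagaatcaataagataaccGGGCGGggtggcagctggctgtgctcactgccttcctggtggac
Hnf4a, downstream start: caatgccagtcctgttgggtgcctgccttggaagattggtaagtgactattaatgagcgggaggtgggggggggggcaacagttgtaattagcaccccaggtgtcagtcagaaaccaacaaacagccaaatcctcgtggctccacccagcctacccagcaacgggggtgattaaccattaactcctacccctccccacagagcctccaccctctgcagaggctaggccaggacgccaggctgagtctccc
Lhx1: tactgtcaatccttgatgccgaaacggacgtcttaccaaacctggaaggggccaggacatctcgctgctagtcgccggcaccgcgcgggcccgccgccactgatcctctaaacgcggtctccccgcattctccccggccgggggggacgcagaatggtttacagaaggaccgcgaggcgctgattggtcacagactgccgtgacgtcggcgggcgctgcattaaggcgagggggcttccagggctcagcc
Sox4: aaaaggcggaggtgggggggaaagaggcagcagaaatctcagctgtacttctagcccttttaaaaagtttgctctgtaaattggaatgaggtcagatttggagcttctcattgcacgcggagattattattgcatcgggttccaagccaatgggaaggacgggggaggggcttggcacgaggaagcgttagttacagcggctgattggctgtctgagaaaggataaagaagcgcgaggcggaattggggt
Klf6: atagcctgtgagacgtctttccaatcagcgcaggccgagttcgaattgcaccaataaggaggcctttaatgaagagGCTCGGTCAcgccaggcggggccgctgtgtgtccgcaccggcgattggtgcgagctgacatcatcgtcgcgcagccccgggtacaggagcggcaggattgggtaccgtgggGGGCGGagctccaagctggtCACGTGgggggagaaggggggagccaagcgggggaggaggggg
Klf6, which rose, held 3 of these motifs. They were an NRF2 core on the minus strand, 174 to 166 bases before the start (GCTCGGTCA as printed), a GC box at 63 to 58 bases and an E-box at 43 to 38 bases. The upstream start of Hnf4a held 1 GC box, at 44 to 39 bases, and its downstream start, Lhx1 and Sox4 held none of the 5 motifs. Of 32851 windows of the same length in the table, 10.2% held the NRF2 core, 6.75% the AP-1 site, 6.02% the E-box, 32.7% the GC box and 12.4% the TATA box. A match is a stretch of letters and not a measured binding site, and no match says only that these letters are not in the window.

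Levels are given as log2 signal over the 75th percentile of the array, and differences between groups as log2 differences with limma's standard error (SE) over 2 arrays per group. A gene was called when its Benjamini-Hochberg adjusted p over the 20580 genes was under 0.05. Between 62.1% and 67.8% of the spots on an array were well above background and none was saturated. Replicate 1 of every group lay on slide 1 and replicate 2 on slide 2, so each difference could also be taken within a slide. Where a pair of values is given for a group, the value of replicate 1 comes first. Keap1 checked the labels and was lower in KD by 1.26 without injury and 1.39 with it (adjusted p = 0.0039 and 0.00498): it was at 2.78 and 2.70 on the WT normal pair and at 2.71 and 2.55 on the WT IRI pair, against 1.53 and 1.44 on the KD normal pair and 1.38 and 1.09 on the KD IRI pair. The markers of the proximal tubule had a summed signal, relative to the 75th percentile, of 488 to 500 on the WT normal pair, 531 to 560 on the KD normal pair, 120 to 206 on the WT IRI pair and 113 to 144 on the KD IRI pair. Neutrophil markers summed to 0.313 on both WT normal arrays, 0.779 and 6.31 on the KD normal pair, 50.5 and 108 on the WT IRI pair and 54.4 and 60.7 on the KD IRI pair. In whole kidneys, fewer cells of a type and less RNA per cell cannot be told apart.

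**Figure D1:**
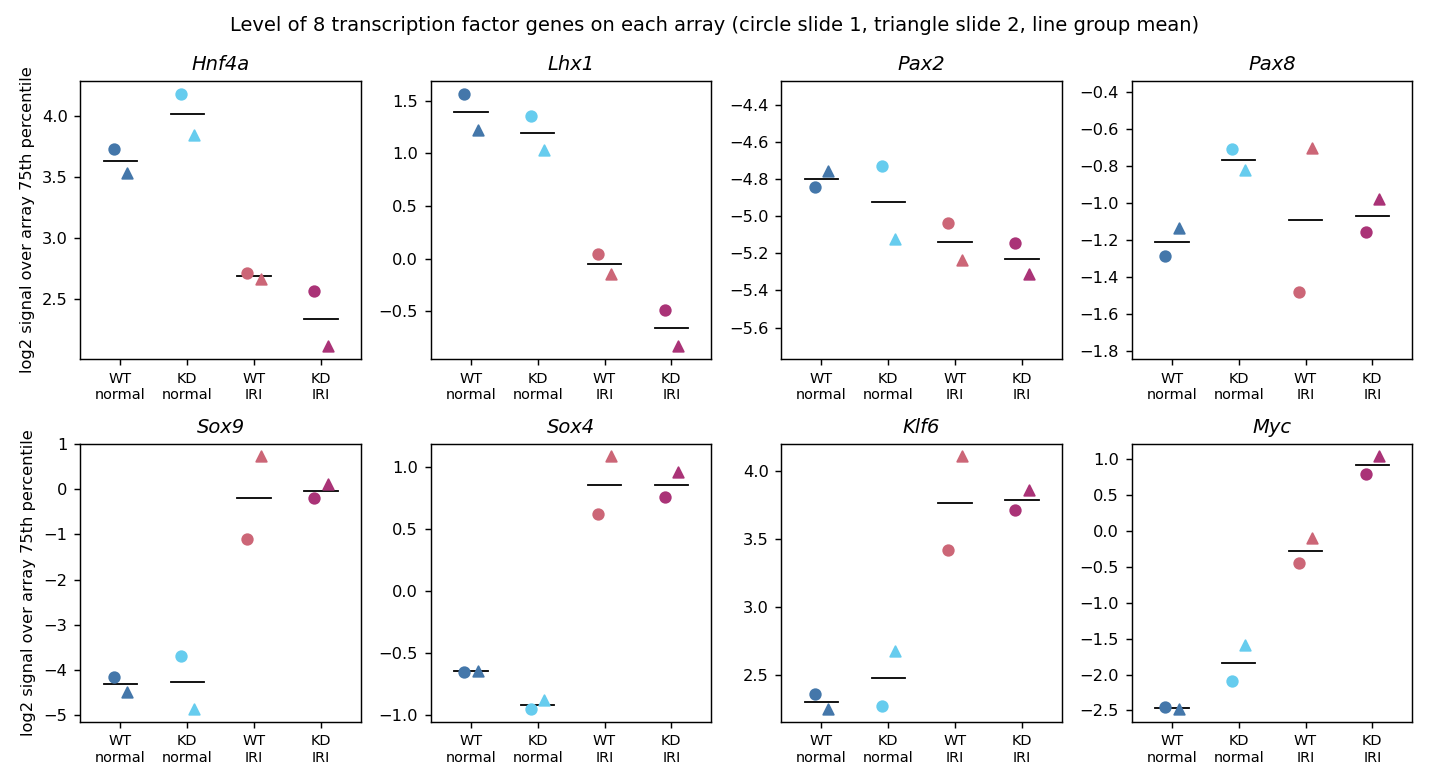
Level of each gene on every array (vertical axis, log2 signal relative to the 75th percentile; each panel has its own scale and levels are not comparable between panels), with circles for slide 1, triangles for slide 2 and a line at the group mean. Hnf4a and Lhx1 were lower, and Sox9, Sox4, Klf6 and Myc higher, on all injured arrays than on all normal arrays, whereas the arrays of Pax8 overlapped.

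Injury changed 6 of the 8 genes, in the same direction in both genotypes. In WT, where the question is how injury acts with normal Keap1, the test called Sox9, Sox4, Klf6 and Myc higher, Hnf4a and Lhx1 lower, and neither Pax2 nor Pax8. In KD, the comparison of KD IRI with KD normal called 4 higher and 2 lower, and again not Pax2 or Pax8. The background was high: injury moved 45.7% of all genes tested in WT and 59.1% in KD, so a call by itself sets no member apart. Higher calls made up 21.2% of all genes in WT and 28.3% in KD, and lower calls 24.4% and 30.9%. At an unadjusted p under 0.05 stood 6 of the 8 members in each genotype, against 53.7% of all genes in WT and 64.1% in KD. The injured and normal arrays did not overlap for 7 of the 8 members in WT, where 76.6% of all genes did not, and for 8 of 8 in KD, where 81.8% did not. Each genotype's injury comparison uses its own normal kidneys, and the 2 comparisons share no array. Both rest on 1 estimate of the spread fitted over all 8 arrays, so their p-values are not independent. The difference between the 2 responses, the interaction, was called for 0 of the 8 members by limma, against 6.52% of all genes (3.79% above 0 and 2.73% below), and had an unadjusted p under 0.05 for 1 of 8, Hnf4a, against 26.1% of all genes.

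Hnf4a, the nuclear receptor of the proximal tubule, fell with injury. Its brightest probe was at 3.73 and 3.53 on the WT normal pair, 4.19 and 3.84 on the KD normal pair, 2.71 and 2.66 on the WT IRI pair, and 2.56 and 2.11 on the KD IRI pair. The 4 normal arrays were above the 4 injured arrays, with KD the higher genotype without injury and the lower with it. The decrease was 0.95 ± 0.17 (SE) on the log2 scale in WT, a 1.93-fold fall (adjusted p = 0.00478; -1.02 and -0.87 within the slides). In KD Hnf4a fell by 1.68 ± 0.17, or 3.21-fold (adjusted p = 0.000229; -1.62 and -1.74 within the slides). The genotypes did not differ past the threshold without injury (0.38, 95% interval -0.031 to 0.80, adjusted p = 0.180) or with it (-0.35, interval -0.77 to 0.063, adjusted p = 0.250). Ordered by mean, KD normal (4.02) stood above WT normal (3.63), WT IRI (2.69) and KD IRI (2.33), and neither pair of neighbours of the same injury state differed past the threshold. The fall in KD minus the fall in WT was -0.73 ± 0.25 (unadjusted p = 0.0210, adjusted p = 0.124), and with the slide as a block it passed (adjusted p = 0.0450; -0.60 and -0.87 within the slides).

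The other 2 probes of Hnf4a also fell in both genotypes, and they gave different calls for the knockdown. Probe A_51_P198473 was at -1.02 and -1.10 on the WT normal pair, -0.20 and -0.29 on the KD normal pair, -2.11 and -1.94 on the WT IRI pair, and -2.18 and -2.58 on the KD IRI pair. Tested among the 27408 single probes, it was higher in KD normal than in WT normal by 0.82 ± 0.15 (adjusted p = 0.0161). Its interaction was -1.17 ± 0.21 (adjusted p = 0.0304). Probe A_52_P69656 was at -0.37 and -0.58 on the WT normal pair and at -0.044 and -0.32 on the KD normal pair, a difference of 0.29 ± 0.20 (adjusted p = 0.345), with an interaction of -0.85 (adjusted p = 0.115). All 3 probes thus had a larger fitted fall in KD than in WT, and 1 of the 3 passed the test of that difference. Their positions within the transcript were not used here.

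Genes of the proximal tubule fell on the same arrays. Of 23 transport and metabolism genes measured from a list of 25, 22 fell in WT with injury, none rose and 1 was not called, with a median of -1.48 against -0.065 over all genes. Hpd, the tyrosine-breakdown enzyme, fell by 4.64, and Ass1, which makes argininosuccinate, by 2.50. In KD all 23 fell, with a median of -2.34. Between the injured genotypes 9 of the 23 were lower in KD, against 3.45% of all genes, none was higher and 14 were not called (median -0.44). This last count was 0 without KD IRI replicate 2, 2 without either WT normal array, 4 without KD IRI replicate 1 or WT IRI replicate 1, 5 without either KD normal array and 9 without WT IRI replicate 2. The median ranged from -0.75 without WT IRI replicate 2 to -0.33 without KD IRI replicate 2. The count was 3 in the deposited table, without a filter on dim probes and without the intensity trend, and 0 when only the 4 arrays compared were fitted. Without injury none of the 23 was called between the genotypes (median 0.092). The interaction was below 0 and past the threshold for 6 of 23, with a median of -0.56. That count was 0 without either WT normal array or KD IRI replicate 2, 2 and 3 without KD normal replicate 2 and 1, and 9 without WT IRI replicate 2, and the median ranged from -0.94 without WT IRI replicate 2 to -0.33 without WT IRI replicate 1.

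Lhx1, the LIM homeobox gene of early nephrons, also fell with injury. It was read by 1 probe, averaged over 10 spots, at 1.57 and 1.23 on the WT normal pair, 1.35 and 1.03 on the KD normal pair, 0.041 and -0.15 on the WT IRI pair, and -0.49 and -0.84 on the KD IRI pair. All normal arrays lay above all injured arrays, and both KD IRI arrays lay below both WT IRI arrays. The fall in WT was 1.45 ± 0.18, or 2.73-fold (adjusted p = 0.000972; -1.53 and -1.37 within the slides). In KD Lhx1 fell by 1.85 ± 0.18, or 3.61-fold (adjusted p = 0.000172; -1.84 and -1.86 within the slides). The injured genotypes differed by -0.61 ± 0.18, which missed the threshold (interval -1.04 to -0.18, adjusted p = 0.0876) and passed with the slide as a block (adjusted p = 0.0203; -0.53 and -0.69 within the slides) and under normexp background correction (adjusted p = 0.0203). Without injury the difference was -0.21 (interval -0.63 to 0.22, adjusted p = 0.477). From high to low the means were 1.40 on the WT normal pair, 1.19 on the KD normal pair, -0.054 on the WT IRI pair and -0.66 on the KD IRI pair.

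The relatives of Lhx1 did not share 1 direction. Of the LIM homeobox genes and their LDB and SSBP partners 9 of 17 could be tested, and with injury in WT 3 were higher, 2 lower and 4 not called (median 0.0013). When single arrays were left out, 1 to 3 were lower and the median ranged from -0.033 to 0.051. Besides Lhx1, Ldb1, the adaptor that joins LIM homeodomain proteins, was lower by 0.29 (adjusted p = 0.0380). Lhx6 rose by 1.55 ± 0.28, and Lhx2, not well above background on either WT normal array, was at least 1.38-fold higher. The adjusted p of Lhx2 (0.00914) belongs to its fitted difference of 2.39, not to this bound. Its probe passed the filter on dim probes only through the injured groups, so it is no independent support for a rise. Without injury, 3 of the 9 were lower in KD than in WT and none higher, against 8.97% and 6.34% of all genes. Among the 3 were the cofactor Ldb2 (-0.80, adjusted p = 0.0137) and Ssbp3 (-0.52, adjusted p = 0.0297). That count ranged from 0 to 3 when single arrays were left out.

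Pax2 and Pax8, the paired-box genes, were called in none of the 5 comparisons. Pax2 was near the detection limit, at -4.84 and -4.76 on the WT normal pair, -4.73 and -5.12 on the KD normal pair, -5.04 and -5.24 on the WT IRI pair, and -5.14 and -5.31 on the KD IRI pair, and was well above background on 1 of 2 WT normal arrays and on both arrays of the other groups. Its difference with injury was -0.34 in WT (interval -0.89 to 0.21, adjusted p = 0.272) and -0.30 in KD (interval -0.85 to 0.24, adjusted p = 0.291). Without injury the genotypes differed by -0.13 (interval -0.67 to 0.42, adjusted p = 0.748). With normexp background correction the sign in WT turned, to 0.76, so no direction can be read for Pax2 at this signal.

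Pax8 was measured well above background on all 8 arrays. It was at -1.29 and -1.14 on the WT normal pair, -0.71 and -0.82 on the KD normal pair, -1.48 and -0.71 on the WT IRI pair, and -1.16 and -0.98 on the KD IRI pair. The 2 WT IRI arrays held the lowest and the highest of the 8 values. Injury gave 0.12 in WT (interval -0.44 to 0.68, adjusted p = 0.703; -0.19 and 0.43 within the slides) and -0.30 in KD (interval -0.86 to 0.25, adjusted p = 0.301). KD normal lay above WT normal on both slides, by 0.58 and 0.31, and the fitted 0.45 ± 0.23 missed the threshold (adjusted p = 0.239). Without WT IRI replicate 1 the injury difference in WT was 0.51 (adjusted p = 0.0270), the interaction -0.81 (adjusted p = 0.0472) and the adjusted p between the normal genotypes 0.0424. Without WT IRI replicate 2 the injury difference in WT was -0.27 (adjusted p = 0.182) and the adjusted p between the normal genotypes 0.0435. Of the 9 PAX genes on the array, only Pax2 and Pax8 passed the filter on dim probes.

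Among 34 other transcription factors of nephron segments and kidney development, out of a list of 40, 12 fell with injury in WT, 2 rose and 20 were not called. Their median was -0.20 (-0.22 to -0.13 when single arrays were left out), against -0.065 over all genes, and the count of falls ranged from 8 to 12 and that of rises from 1 to 5 when single arrays were left out. Esrrb, an estrogen-related nuclear receptor, fell by 1.62 ± 0.22 and Emx1, a homeobox gene, by 1.54 ± 0.22. Elf3, an epithelial ETS factor, rose by 1.45 ± 0.16, and the forkhead gene Foxc2 by 0.60 ± 0.14. In KD 18 of the 34 fell with injury and 6 rose, the rises ranging from 2 to 5 when single arrays were left out. Between the injured genotypes 5 were lower in KD, against 3.45% of all genes, and none higher. All 5 are given here because the count is small: Nr1h4 (-1.29), which encodes the bile acid receptor FXR, Ppara (-1.21), the fatty acid receptor, Esrrb (-1.0), Esrrg (-0.78) and Tfcp2l1 (-0.55). All but Esrrb were named after their values were seen, and the count was 0 without either WT normal array or KD IRI replicate 2, 1 without KD IRI replicate 1, 3 without either KD normal array, and 0 when only the 4 arrays compared were fitted. It was 2 in the deposited table, without a filter on dim probes and without the intensity trend.

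In the uninjured kidney, 4 of the 34 were higher in KD and 2 lower, with a median of 0.011 (-0.0040 to 0.062 when single arrays were left out). Of all genes, 6.34% were called higher and 8.97% lower in this comparison. Sall1, a zinc-finger gene of nephron progenitors, was higher by 0.87 ± 0.14 (adjusted p = 0.0127). Hnf4g, the paralogue of Hnf4a, was higher by 0.75 ± 0.18 (adjusted p = 0.0374). Osr1 was lower by 1.06 ± 0.25 (adjusted p = 0.0370), and Tcf21 by 0.54 ± 0.10 (adjusted p = 0.0195). Of the called genes, the higher ranged from 0 to 5 and the lower from 0 to 4 when single arrays were left out.

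Sox9, the repair factor of surviving tubule cells, had the largest change of the 8 members in both injury comparisons. Its brightest probe was at -4.15 and -4.49 on the WT normal pair, -3.68 and -4.87 on the KD normal pair, -1.10 and 0.72 on the WT IRI pair, and -0.20 and 0.12 on the KD IRI pair. Every injured array was above every normal array, and the 2 WT IRI arrays lay on either side of the KD IRI arrays. Sox9 rose 17.5-fold in WT (log2 4.13 ± 0.60, adjusted p = 0.00185), by 3.05 on slide 1 and 5.21 on slide 2. In KD it rose 18.9-fold (4.24 ± 0.60, adjusted p = 0.000952; 3.49 and 4.99 within the slides). The rise in WT ranged from 3.22 to 5.04 when single arrays were left out and stayed past the threshold. The genotypes differed by 0.043 without injury (interval -1.39 to 1.48) and by 0.15 with injury (interval -1.28 to 1.58), and both intervals include differences of more than 2-fold either way. By fold without sign, Sox9 stood at place 141 of 20580 genes in WT and at place 251 in KD.

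The other probes of Sox9 were dim in normal kidneys. Probe A_52_P214630 was not well above background on any of the 4 normal arrays and was at -2.14 and -0.28 on the WT IRI pair and -1.31 and -0.89 on the KD IRI pair. Against the lowest signal well above background, it was at least 14.5-fold higher with injury in WT and at least 20.6-fold higher in KD. The adjusted p of limma (0.000505 in WT and 0.000181 in KD) belongs to the fitted differences of 5.15 and 5.44, not to these bounds. The probe passed the filter on dim probes only through the injured groups, so it is no independent support for the rise. Probe A_51_P451606 was well above background on 1 of 2 WT IRI arrays and both KD IRI arrays only, which bounds no rise in WT and gives a bound of 1.01-fold in KD.

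Sox4, the other SOX gene among the members, rose by a smaller factor. It was at -0.65 and -0.64 on the WT normal pair, -0.95 and -0.88 on the KD normal pair, 0.62 and 1.08 on the WT IRI pair, and 0.76 and 0.96 on the KD IRI pair. The injured arrays of the genotypes overlapped, and both KD normal arrays lay just below both WT normal arrays. Sox4 rose 2.82-fold in WT (1.50 ± 0.16, adjusted p = 0.000504; 1.27 and 1.73 within the slides) and 3.41-fold in KD (1.77 ± 0.16, adjusted p = 0.000117; 1.71 and 1.83 within the slides). With injury the genotypes differed by 0.0057 (interval -0.36 to 0.38, adjusted p = 0.987), and without injury by -0.27 (interval -0.64 to 0.10, adjusted p = 0.284).

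Of 13 SOX genes tested, the 2 members included, 4 rose and 4 fell with injury in WT. Sox11, a close relative of Sox4, was not well above background in WT normal and was at least 2.45-fold higher in WT IRI. Its adjusted p (0.00304) belongs to the fitted difference of 1.72, not to this bound. The probe of Sox11 passed the filter on dim probes only through the injured groups, so it is no independent support for a rise. Sox21 fell by 1.17 ± 0.13 and Sox6 by 0.50 ± 0.12. The falls numbered 1 without WT normal replicate 1 and 2 without WT normal replicate 2 or WT IRI replicate 2. The list's median was 0.062, and it ranged from -0.098 to 0.22 when single arrays were left out. Without injury Sox6 alone was called between the genotypes, at -0.65 ± 0.12 (adjusted p = 0.0175; 0 to 1 lower and 0 to 2 higher when single arrays were left out), and none of the 13 was called between the injured genotypes.

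Klf6, the early zinc-finger factor of injured tubule, rose with injury in both genotypes. It was at 2.36 and 2.25 on the WT normal pair, 2.28 and 2.68 on the KD normal pair, 3.42 and 4.11 on the WT IRI pair, and 3.72 and 3.86 on the KD IRI pair. All injured arrays were above all normal arrays, while the genotypes overlapped in each state. The rise in WT was 2.75-fold (1.46 ± 0.23, adjusted p = 0.00241; 1.06 and 1.86 within the slides). In KD it was 2.48-fold (1.31 ± 0.23, adjusted p = 0.00237; 1.44 and 1.18 within the slides). The second probe, A_51_P503162, rose by 1.27 in WT (adjusted p = 0.00204) and by 1.02 in KD (adjusted p = 0.00325). Between the genotypes the difference was 0.17 without injury (interval -0.37 to 0.71, adjusted p = 0.644) and 0.022 with injury (interval -0.52 to 0.56, adjusted p = 0.963).

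The KLF family split. Of 15 KLF genes tested, Klf6 included, 6 rose and 4 fell with injury in WT, with a median of 0.022 (-0.036 to 0.32 when single arrays were left out). Klf5, an epithelial family member, rose by 1.75 ± 0.23, the erythroid factor Klf1 fell by 2.34 ± 0.35 and the endothelial factor Klf2 by 1.99 ± 0.25. Klf5 was at -2.36 and -2.24 on the WT normal pair, -1.62 and -0.90 on the KD normal pair, -0.71 and -0.39 on the WT IRI pair, and 0.58 and 0.70 on the KD IRI pair. It was called higher in KD both without injury (1.04, adjusted p = 0.0296) and with it (1.19, adjusted p = 0.0312). Over the family, 3 were higher and 2 lower in KD without injury, against 6.34% and 8.97% of all genes. With injury 2 were higher and 1 lower, against 3.75% and 3.45% of all genes. These calls, both of Klf5 included, were lost without either WT normal array. The calls with injury also depended on other single arrays. The difference between Klf5 and Klf6 was not itself tested. Klf15, at 2.85 and 2.76 on the WT normal pair and 3.71 and 3.98 on the KD normal pair, was higher in KD without injury (1.04, adjusted p = 0.0375), and Klf11 was lower (-1.99, adjusted p = 0.0109).

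Breakdown of branched-chain amino acids, a pathway that KLF6 is reported to repress in tubule cells, was covered by 22 measured genes of a list of 24. All 22 fell with injury in WT, with a median of -1.34, and 21 of 22 fell in KD, with a median of -1.52. Abat, a transaminase, fell by 2.36 ± 0.20 and Ivd, the isovaleryl-CoA dehydrogenase, by 2.10 ± 0.12 in WT. Many of these enzymes are abundant in the proximal tubule, and all 5 markers of that segment fell on the same arrays (median -1.65). The part of that fall in the result was not tested. Between the genotypes 1 of the 22 was lower in KD without injury, Bcat2 (-0.78, adjusted p = 0.0266), and 1 with injury. When single arrays were left out these counts were 0 to 1 and 0 to 3.

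Myc, the growth regulator, was the only member whose brightest probe was called between the genotypes. That call was made with injury and not without it, and it depended on single arrays. Its brightest probe, averaged over 10 spots, was at -2.46 and -2.48 on the WT normal pair, -2.09 and -1.59 on the KD normal pair, -0.44 and -0.10 on the WT IRI pair, and 0.80 and 1.04 on the KD IRI pair. The 4 groups did not overlap, and KD was the higher genotype in both states. Myc rose 4.58-fold with injury in WT (2.20 ± 0.19, adjusted p = 0.000287; 2.01 and 2.38 within the slides) and 6.79-fold in KD (2.76 ± 0.19, adjusted p = 5.09e-05; 2.89 and 2.63 within the slides). The extra rise in KD was 0.57 (interval -0.081 to 1.21) and did not pass (adjusted p = 0.243).

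After injury, Myc was 2.29-fold higher in KD than in WT (1.20 ± 0.19, interval 0.74 to 1.65, adjusted p = 0.0216; 1.25 and 1.14 within the slides). It was the only 1 of the 8 members called between the injured genotypes, where 7.2% of all genes were called, 3.75% higher and 3.45% lower. The injured arrays of the genotypes did not overlap for 3 of the 8 members (Hnf4a, Lhx1 and Myc), against 57.1% of all genes. All 3 probes gave the call, with 1.20 (adjusted p = 0.0217), 1.16 (adjusted p = 0.0343) and 0.88 (adjusted p = 0.0343). The call was lost when any 1 of 5 arrays was left out, with adjusted p of 0.0570 and 0.0571 without WT normal replicate 1 or 2, 0.0531 without WT IRI replicate 1, and 0.0741 and 0.148 without KD IRI replicate 1 or 2. It was also lost when only the 4 arrays compared were fitted (adjusted p = 0.0659). The difference itself stayed between 1.02 and 1.37.

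Without injury, none of the 8 members was called between KD normal and WT normal by limma, against 15.3% of all genes (6.34% higher and 8.97% lower), and 1 of the 8, Myc, had an unadjusted p under 0.05, against 32.9% of all genes. The normal arrays of the genotypes did not overlap for 4 of the 8 (Hnf4a, Pax8, Sox4 and Myc), against 64.7% of all genes. Myc was 1.55-fold higher in KD (0.63 ± 0.19, interval 0.17 to 1.09, adjusted p = 0.0709; 0.37 and 0.89 within the slides). With the slide as a block it passed (adjusted p = 0.0321), and likewise with normexp background correction (adjusted p = 0.0155) and without KD normal replicate 1 (adjusted p = 0.0381). Probe A_52_P278549, not well above background in WT normal, was higher in KD normal by a fitted 0.66 (interval 0.25 to 1.07). Its adjusted p from limma among single probes was 0.0453. The bound for this probe, 1.58-fold, is the same as the fitted difference, so it sets no minimum. The higher KD normal array, replicate 2, was also the array with the larger sum of neutrophil markers. The part of those cells in the difference was not tested.

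**Figure D2:**
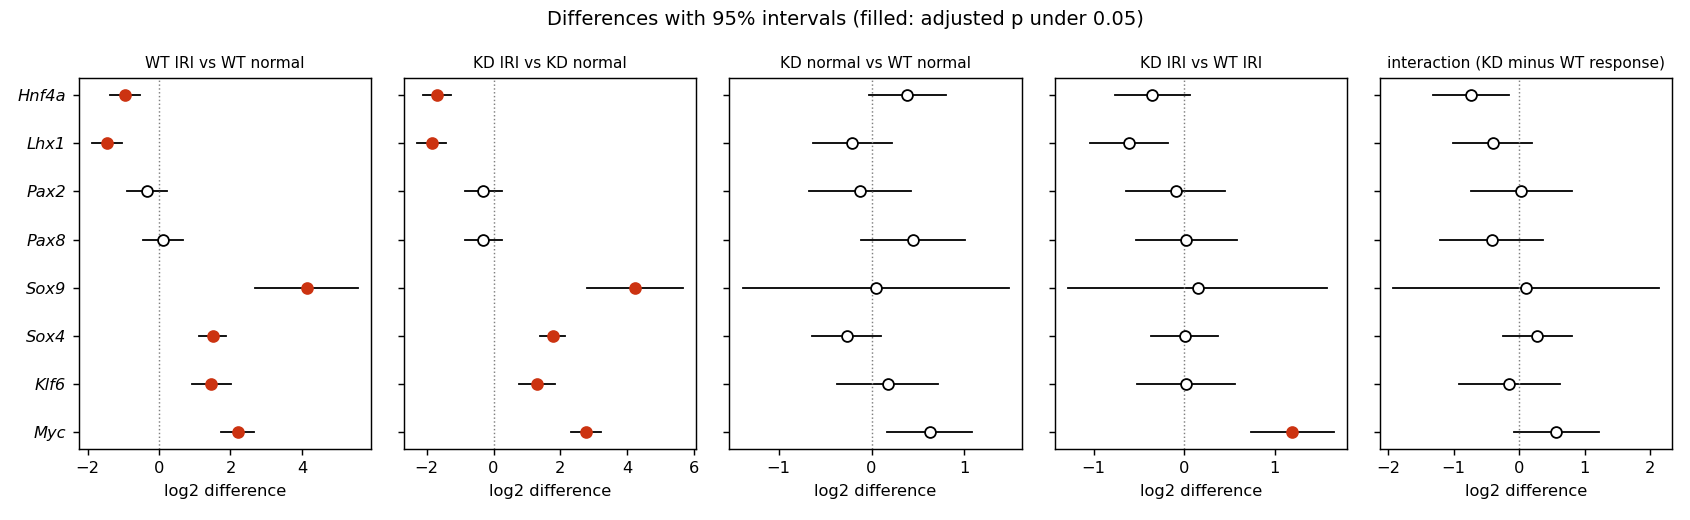
Log2 difference (horizontal axis) of each gene in the 5 comparisons, with 95% intervals from limma over 2 arrays per group; filled points passed an adjusted p of 0.05. Hnf4a, Lhx1, Sox9, Sox4, Klf6 and Myc passed in both injury comparisons, Myc alone between the injured genotypes, and no gene in the normal genotypes or the interaction.

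**Figure D3:**
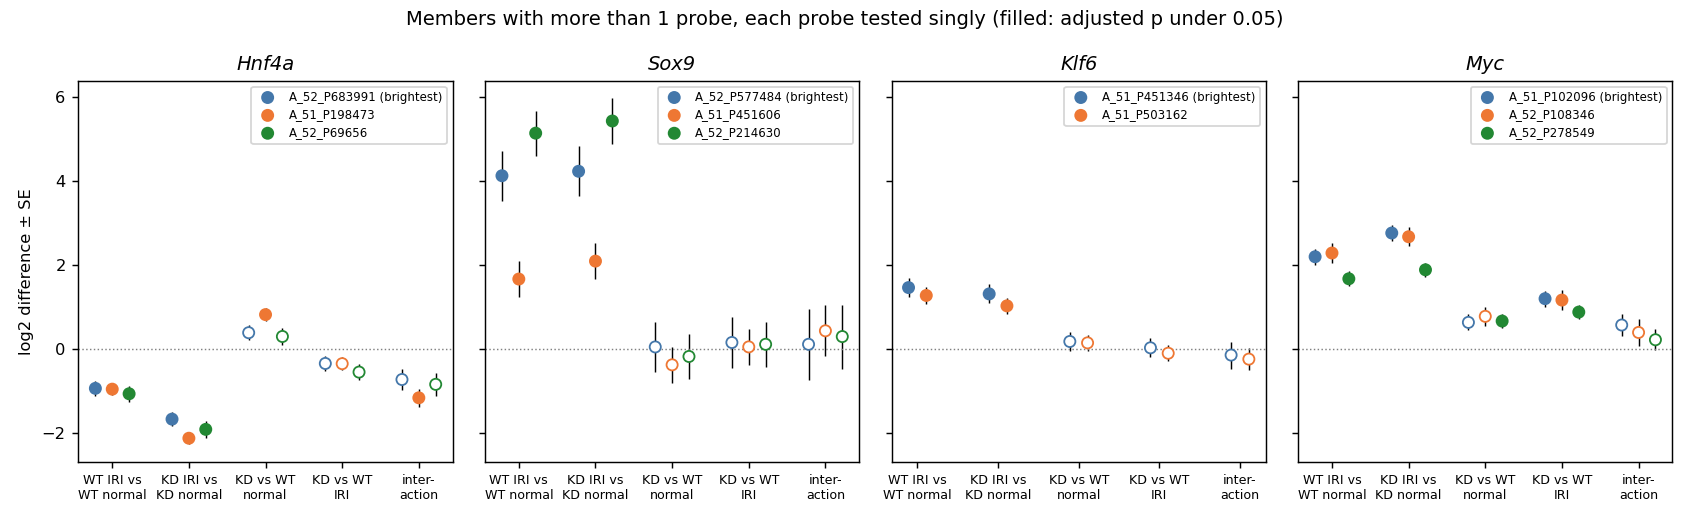
Log2 difference (vertical axis, bars ± SE) of every probe of Hnf4a, Sox9, Klf6 and Myc in the 5 comparisons, each probe tested among 27408; filled points passed an adjusted p of 0.05. The 3 Myc probes were higher in KD IRI than in WT IRI, and 1 of 3 Hnf4a probes passed in KD normal and in the interaction; Sox9 probes below background in normal kidneys are drawn at their fitted values, which are no bounds.

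Genes commonly listed as MYC targets were examined beside Myc. Of 24 measured from a list of 25, mostly genes of nucleolus and ribosome assembly, 18 rose with injury in WT, 1 fell and 5 were not called, with a median of 0.55. Cad, which starts pyrimidine synthesis, rose by 1.46 ± 0.095, and the nucleolar helicase Ddx21 by 1.34 ± 0.18. Odc1, the polyamine enzyme, fell by 0.64 ± 0.19 (adjusted p = 0.0286). In KD 18 rose with injury and 4 fell, with a median of 0.84.

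Between the injured genotypes 9 of the 24 were higher in KD, against 3.75% of all genes, and none lower. The median was 0.43 against -0.041 over all genes. Cad was at 1.67 and 1.72 on the WT IRI pair and at 2.29 and 2.38 on the KD IRI pair (0.64, adjusted p = 0.0190). Nop58, named after its values were seen, was at 2.26 and 2.13 on the WT IRI pair and 3.06 and 3.27 on the KD IRI pair (0.97). The 9 became 3 without either WT normal array, 1 without KD IRI replicate 1, none without KD IRI replicate 2 and none when only the 4 arrays compared were fitted, while the median stayed between 0.36 and 0.44. Without injury 8 were higher in KD, against 6.34% of all genes, and none lower, with a median of 0.24. Gnl3, a nucleolar GTPase, was higher by 0.79 ± 0.15 (adjusted p = 0.0177) and Ddx21 by 0.70 ± 0.18 (adjusted p = 0.0421). That count fell to 0 without either WT normal array, to 2 without KD normal replicate 1, and to 4 without KD normal replicate 2 or either KD IRI array, and it was 3 under normexp background correction and without a filter on dim probes, and 4 under quantile normalization, in the deposited table and without the intensity trend.

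The partners and relatives of MYC were counted in the same way. Of 12 genes of the MYC, MAX and MLX network, Myc excluded, 1 rose with injury in WT, 4 fell and 7 were not called, with a median of -0.11. The falls numbered 1 without either WT normal array, and the median ranged from -0.19 to -0.023 when single arrays were left out. In KD 2 rose with injury, 6 fell and 4 were not called, with a median of -0.24 and rises of 1 to 2 when single arrays were left out. Mxd3, a repressor that competes for MAX, rose in WT by 2.55 ± 0.63 (adjusted p = 0.0150), by 3.54 on slide 1 and 1.56 on slide 2. It was well above background on 1 of 2 WT normal arrays, and its call in WT depended on single arrays. The glucose-responsive factor Mlxipl fell in WT by 0.97 ± 0.16. Between the injured genotypes 1 of the 12 was called: Mxi1, a MYC antagonist, was lower in KD by 0.70, and was named after its values were seen. None of the 12 was called between the normal genotypes. With single arrays left out, these counts were 0 to 1 in each case.

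**Figure D4:**
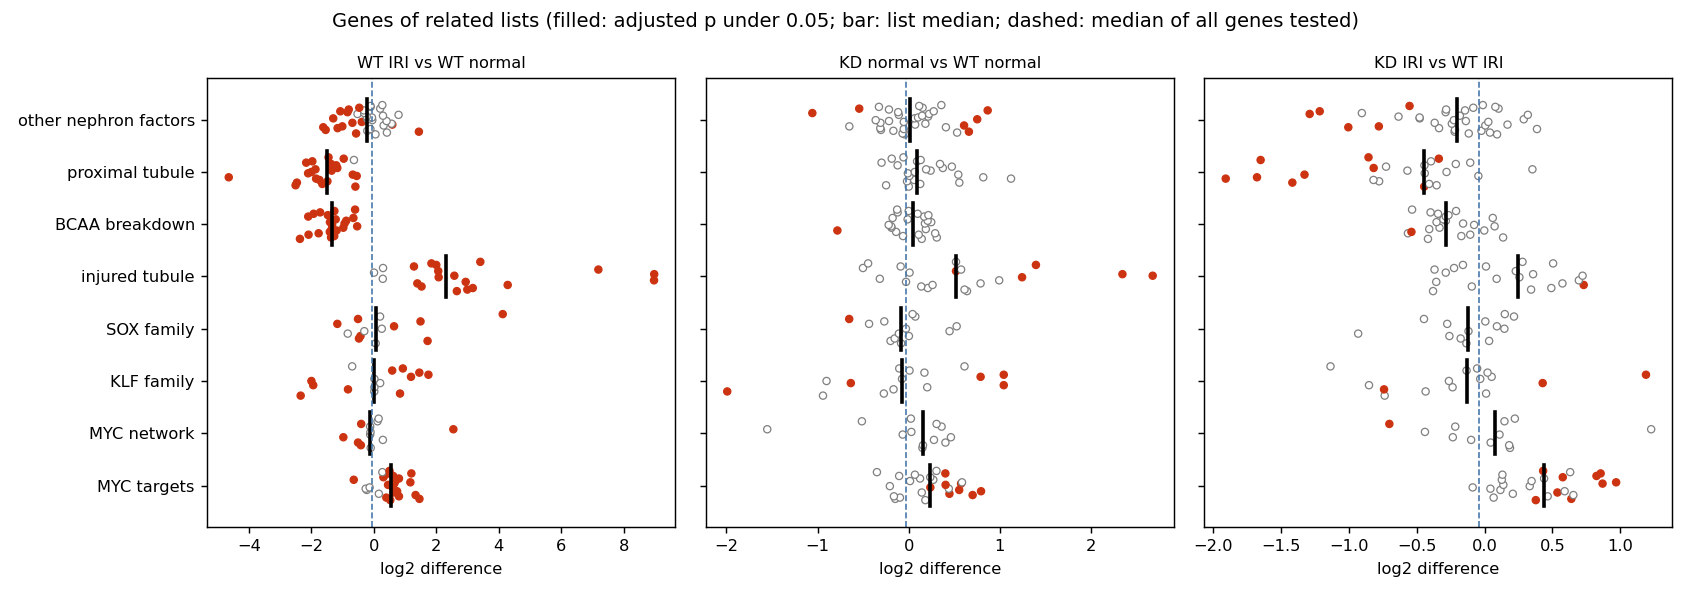
Log2 difference (horizontal axis) of single genes in 8 related lists for WT IRI vs WT normal, KD normal vs WT normal and KD IRI vs WT IRI; filled points passed an adjusted p of 0.05, bars are list medians and the dashed line is the median of all genes. Proximal tubule and branched-chain amino acid (BCAA) genes lay below 0 and MYC targets mostly above 0 with injury in WT, where their medians were -1.48, -1.34 and 0.55.

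Genes of injured and dedifferentiated tubule epithelium were measured on the same arrays as the rising factors. Of 20, 17 rose in WT and 3 were not called, with a median of 2.33, and 17 rose in KD, with a median of 1.71. Havcr1, which encodes KIM-1, rose by 8.97 ± 0.37 in WT. Without injury 5 of the 20 were higher in KD, against 6.34% of all genes, and none lower (median 0.52). Among the 5 were Krt19 (2.68 ± 0.28) and Krt20 (2.35 ± 0.46). That count was 0 without WT normal replicate 2, 1 without WT normal replicate 1 and 3 without KD normal replicate 2, and the median was 0.079 without KD normal replicate 2. Between the injured genotypes 1 of the 20 was called, and 0 to 3 when single arrays were left out.

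Signals that form the nephron gave a mixed response. Of 27 genes of the WNT, NOTCH, GDNF and FGF pathways, 6 rose, 6 fell and 15 were not called with injury in WT, with a median of 0.031 (-0.070 to 0.11 when single arrays were left out). The NOTCH target Heyl rose by 1.77 ± 0.097 and the receptor Notch3 by 1.33 ± 0.16. Wnt11, a ligand of the ureteric tip, fell by 2.02 ± 0.16, and Bmp7 by 0.96 ± 0.17. Without injury 3 of the 27 were higher in KD and 1 lower, against 6.34% and 8.97% of all genes. The gene lower in KD was Wnt11 (-1.63 ± 0.16, adjusted p = 0.00437). Among the higher was Grem1, not well above background in WT normal and at least 7.05-fold higher in KD normal. Its probe passed the filter on dim probes only through KD normal, so it is no independent support for a difference. The calls among the 27 without injury depended on single arrays. None of the 27 was called between the injured genotypes, and 0 to 1 were higher and 0 to 2 lower when single arrays were left out.

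Markers of other cell types moved with the injury groups. Of the markers tested, 5 of 6 for neutrophils rose in WT, with none lower; 6 of 7 for monocytes and macrophages rose and 1 fell; and 6 of 7 for fibroblasts and pericytes rose. The summed signal of the macrophage markers was 3.32 to 4.37 on the normal arrays and at least 7.60 on the injured arrays, and that of the fibroblast markers 26.6 to 33.5 and 106 to 167. Markers of other nephron segments fell beside those of the proximal tubule. In WT 5 of 5 for loop and distal tubule and 4 of 5 for collecting duct fell with injury, and none rose. Between the normal genotypes 2 of 5 for loop and distal tubule and 3 of 5 for collecting duct were lower in KD. None was higher, and over all genes 8.97% were lower. The summed signal of the loop and distal markers was 378 and 380 on the WT normal arrays, 306 and 320 on the KD normal arrays, and 219 to 264 on the injured arrays. For the collecting duct the sums were 45.2 and 50.4, 56.7 and 72.7, and 18.4 to 28.2, so the KD normal sum was the higher while 3 of its 5 markers were lower. The podocyte sums were 90.2 and 188 on the WT normal pair, 32.4 and 16.2 on the KD normal pair and 5.52 to 9.04 with injury, with 1 of 5 markers lower with injury in WT, and 1 lower and 1 higher in KD without injury. Among the neutrophil markers, S100a8, Csf3r, Cxcr2 and Retnlg were not well above background on either WT normal array. Csf3r, Cxcr2, Retnlg and the macrophage marker Itgam passed the filter on dim probes only through the injured groups. Their rises are therefore no independent support for the counts of rising markers. The WT IRI arrays differed in these sums, with 50.5 and 108 for neutrophils and 206 and 120 for proximal tubule in replicates 1 and 2. Sox9, Sox4, Klf6, Myc and Pax8 were lower in replicate 1 than in replicate 2, and Hnf4a, Lhx1 and Pax2 were higher. The part of other cell types and of other nephron segments in the differences of the members and lists was not tested.

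Over the 8 arrays, the 3 genes whose values ran most like each member's are given as a description. The arrays divide by injury, so a high Pearson r is shared by many genes. Hnf4a was followed most closely by Galc (r = 0.993), Ovol1 and Phyh (both r = 0.992), and Lhx1 by Camk2n1 (r = 0.999), Ndufs4 and Znrd1as (both r = 0.997). For Sox4 they were Csf2rb (r = 0.999), B4galnt1 (r = 0.998) and Llgl1 (r = 0.997), and for Sox9 Arg1 (r = 0.996), Washc5 (r = 0.993) and Ric8a (r = 0.991). Klf6 ran with Gm4907 (r = 0.997), Gars (r = 0.996) and Ahnak (r = 0.995), and Myc with Ebna1bp2, Prep and Mtmr9 (all r = 0.997). Arg1 was not well above background on any WT normal or KD normal array. Gm4907 was well above background on neither WT normal array and on 1 of 2 KD normal arrays. Pax2, near background, ran with Tdh (r = 0.989), Ninj1 and Alad (both r = 0.978), and Pax8 with Cnot8 (r = 0.967), 4933411K16Rik (r = 0.955) and Uso1 (r = 0.950). Among the members themselves, Pax8 had r between -0.15 and 0.23 with each of the others.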

How the data were processed

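Scanner files and a value table of 8 arrays were used. Per the file headers, Agilent Feature Extraction 10.7.3.1 made the linear spot intensity by subtracting and detrending the background. The deposited value table holds log2 values whose scaling is not stated. Its columns, with medians of 0.16, 0.125, 0.0952, 0.0564, -0.0746, -0.0822, -0.136 and -0.117, tracked the scaled, probe-centred scanner values; centring and scale are inferred from this, and it served as an alternative. Control spots and outlier spots were left out, spots of a probe were averaged, and log2 intensity was taken relative to the 75th percentile of the array. Probes stayed in (27408 of 41174) with a value on all arrays and both arrays of some group well above background. RefSeq transcripts (GRCm38.p6, used for names) named 26690 probes. The brightest kept probe stood for a gene, which gave 20580 genes, 14104 of them with a symbol. limma 3.58.1 in R 4.3.3 fitted group means on all 8 arrays (with version 1.17.8 of data.table) with an intensity trend (residual degrees of freedom 4, prior 2.925), tested 5 contrasts two-sided and adjusted by Benjamini-Hochberg; the fit was tested on simulated data. Where both arrays of a group were below background, a fold is a bound, taken against the dimmest signal well above background (or the probe's own, if higher) per array. With 2 arrays a group, their number sets the precision.

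The members and lists were chosen with earlier results of these data known. Named are the members, Keap1, from each list up to 2 genes with the largest rise and fall past the threshold in WT IRI vs WT normal and in KD normal vs WT normal, and the 3 genes most like each member; not all are reported. Alternatives were quantile normalization, normexp (offset 50, on median spot and background signals because the files lack the planned mean signal), the deposited table, other filters on dim probes, no trend, only the arrays compared, a slide block, other probe choices and leaving out each array; for list counts they were added after seeing the data. Replicate numbers equal the slides in the file headers, so the replicate block and the slide block are the same fit. Deviations of same-numbered arrays from their group means correlated with r of 0.022 to 0.26 over genes.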

Additional observations from a re-analysis of the deposited data

Results flagged for a closer look

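Probe A_51_P198473 of Hnf4a had a different injury response in the genotypes, by a test of the difference itself: the response of KD minus that of WT was -1.17 (adjusted p = 0.0304), while the brightest probe of the gene gave -0.73 (adjusted p = 0.124).

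Among the genes named by rule from the related lists, cell type markers aside, the same test passed for 12. Below 0 were Grem1, a BMP antagonist (-6.21, not well above background in WT normal or KD IRI), Hpd (-2.49), Krt19 (-1.96), Klf15 (-1.89), Esrrb (-1.41) and Sall1 (-1.01). Above 0 were Wnt11 (1.66), Klf16 (1.06), Ldb2 (1.01), Cad (0.79), Tcf21 (0.65) and Heyl (0.62). More genes of the lists passed than these 12, such as 6 of 23 for the proximal tubule. The probe of Grem1 passed the filter on dim probes only through KD normal, so its value is no independent support for a difference. The named genes were picked for large changes in comparisons that share arrays with the interaction. Their number is therefore not comparable with the 6.52% of all genes called there. Calls in the interaction also depended on single arrays.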

How the results depend on the processing

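Called results of the members kept direction and call in 228 of 234 alternatives, and the other 6 were losses of the Myc call between the injured genotypes. Without a call, 429 of 473 kept direction and side, 10 gained a call and 34 changed sign. The cause was not tested. Several alternatives could not change a member's fitted difference. They were no trend, only the arrays compared, the slide block, testing each probe singly and leaving out an array outside the comparison. Both tallies therefore overstate how far the directions were put to the test. The count of members called was 0 on the KD normal pair vs WT normal, where normexp gave 1, the slide block gave 1 and single arrays left out gave 0 to 1. It was 1 on the KD IRI pair vs WT IRI, where normexp gave 2, the block 2, only the arrays compared 0 and arrays left out 0 to 1. It was 0 in the interaction, where the block gave 1 and arrays left out 0 to 1. The block, that is the pairing by slide, changed no other call of a member.

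Genes past the threshold numbered 9396 on the WT IRI pair vs WT normal (5203 with normexp, 15088 without a filter, 5890 to 9653 with arrays left out). In KD normal vs WT normal they numbered 3149 (1328, 1984 and 122 to 3863). In KD IRI vs WT IRI there were 1481 (958 without the trend, 67 with only the arrays compared, 24 to 1580 with arrays left out), in KD IRI vs KD normal 12169 (6941 with normexp), and in the interaction 1342 (636 in the deposited table, 572 without a filter, 758 without the trend, 5 to 1687 with arrays left out). Where 1 array of a group is left out, the other is assumed to vary like the remaining groups.

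Signs that turned under normexp were those of Pax2 on the WT IRI pair vs WT normal (0.76), KD normal vs WT normal (0.69) and the interaction (-1.73), of Pax8 (-0.11) and Sox4 (-0.018) in KD IRI vs WT IRI, and of Sox9 (-0.45) and Klf6 (0.19) in the interaction. Normexp also moved the median of all genes, from -0.065 to 0.22, from -0.030 to 0.14, from -0.041 to -0.21, from -0.061 to -0.31 and from 0.0031 to -0.30 in the comparisons in the order given above. Quantile normalization turned Pax2 on the KD IRI pair vs WT IRI (0.024). The mean of all probes turned Sox9 on the KD normal pair vs WT normal (-0.18) and Klf6 on the KD IRI pair vs WT IRI (-0.043).

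With single arrays left out, differences spanned 0 for Pax8 on the WT IRI pair vs WT normal (-0.27 to 0.51). In KD normal vs WT normal they did so for Sox9 (-0.55 to 0.63), Pax2 (-0.32 to 0.072) and Klf6 (-0.029 to 0.38). In KD IRI vs WT IRI they did so for Pax2 (-0.19 to 0.0061), Pax8 (-0.36 to 0.41), Sox4 (-0.23 to 0.24), Sox9 (-0.76 to 1.06) and Klf6 (-0.32 to 0.37), and in the interaction for Sox9 (-0.80 to 1.02), Pax2 (-0.16 to 0.23) and Klf6 (-0.50 to 0.19). Pax2 could not be tested among probes well above background on all 8 arrays, and the interaction could not be fitted on only the arrays compared. Signal over background limits Pax2 and the dim probes of Sox9 and Myc.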
